A study of Canis lupus familiaris with 10 samples.

Results

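The PI3K and mTOR regulators described here are 9 genes, out of 23266 gene symbols measured by QuantSeq 3′ RNA-Seq in canine cutaneous histiocytoma (CCH). They are DEPTOR, MTOR, RPTOR and RICTOR of the mTOR complexes, PIK3CD and PIK3CG as catalytic and PIK3R1 and PIK3R2 as regulatory subunits of class I PI3K, and the autophagy kinase ULK2. DEPTOR and PIK3R2 were chosen by their fall between the stages in these same values, so their difference is given as a description and without a test. The other 7 were listed with earlier results of these data known, but not for a stated change. All 9 were present in the table and all passed the filter on low values.

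In CCH, cells of the Langerhans lineage form a benign nodule in the skin, which usually regresses without treatment. The early group held 5 tumors of group 1 of the Cockerell and Slauson scheme, which grades histiocytomas by their lymphocyte infiltrate. The late group held 5 tumors of group 3, whose labels add that they were lymphocyte enriched. Every sample was formalin-fixed, paraffin-embedded (FFPE) archival tissue of a pet dog, with no treatment given in the labels. Ages ran from 0.5 to 5 years in early CCH (n = 4 with an age) and from 1.5 to 9 years in late CCH (n = 5). RNA came from whole cross sections with adjacent tissue trimmed away, so that tumor cells, infiltrating lymphocytes, stroma and epidermis were measured together. In such bulk samples, fewer cells of a type and less RNA per cell cannot be told apart.

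PI3K enzymes pair a catalytic with a regulatory subunit and phosphorylate a membrane lipid, which recruits the kinase AKT. AKT in turn releases mTOR from the brake of the TSC complex. The mTOR kinase works in a complex with the scaffold RPTOR, which drives protein synthesis and holds back autophagy, and in a complex with the scaffold RICTOR, which phosphorylates AKT. DEPTOR binds mTOR in both complexes and inhibits it. The catalytic isoforms encoded by PIK3CD and PIK3CG are best known from leukocytes, where the former acts behind antigen and cytokine receptors and the latter behind chemoattractant receptors.

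The libraries held between 2973125 and 4439709 reads assigned to genes. DV200, a measure of RNA integrity, was 64.5 to 71.2% in the early and 71.2 to 75.8% in the late samples according to the labels, and the study lists the stages in separate RNA extraction batches, so that stage, batch and RNA integrity cannot be told apart in any difference below. All 8 T-cell markers were higher in every late than in every early library, with a summed level of 55.2 to 1922 in early and 3294 to 5150 in late CCH, although none was called. CD5 and TRAT1 of this list were at 0 in 1 early library each. The B-cell sum was 51.5 to 238 and 412 to 2298. The summed Langerhans and dendritic cell markers lay between 940 and 2777 in early and between 691 and 1041 in late CCH, and CD1A8 was at 0 in 1 late library. The symbols CD207 and CD1A2 of this list were not among the gene symbols measured, so neither has a value here. Of the 6 Langerhans and dendritic cell markers tested, FLT3 alone was called lower. Keratinocyte, fibroblast, endothelial, macrophage and neutrophil sums overlapped between the stages.

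Values below are normalized read counts, that is, reads divided by a size factor of the library. Differences are log2 fold changes (log2FC) of log2(value + 1), with positive values where late CCH was higher. The method reads 1 fragment near the end of a transcript, so reads of different genes may be set side by side without a division by length. The study extended genes downstream because annotated 3′ ends can be too short. Remaining differences between genes in how fully their reads were counted were not tested. A gene was called when the p-value from limma, adjusted over all 12397 genes tested with the Benjamini-Yekutieli (BY) procedure, was at most 0.05 and the log2FC was at least 1 in size. By this rule 2.17% of all genes tested were called, 1.06% as higher and 1.11% as lower in late CCH. Every late library lay above every early library for 5.91% of the genes and below for 6.05%. Over all genes tested the log2FC had a median of -0.004.

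Of the 7 members not picked for their fall, PIK3CG and ULK2 were called lower, PIK3CD was called higher, and PIK3R1, MTOR, RPTOR and RICTOR were not called. PIK3CG and ULK2 fell to a similar extent (2.72-fold and 2.75-fold), and PIK3CD rose 2.03-fold. The genes that encode the mTOR kinase and the scaffolds of its complexes overlapped between the stages. All 5 late libraries lay below every early library for PIK3CG and ULK2, and above for PIK3CD. They also lay below for DEPTOR and PIK3R2, which were picked for their fall in these same values.

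**Figure D1:**
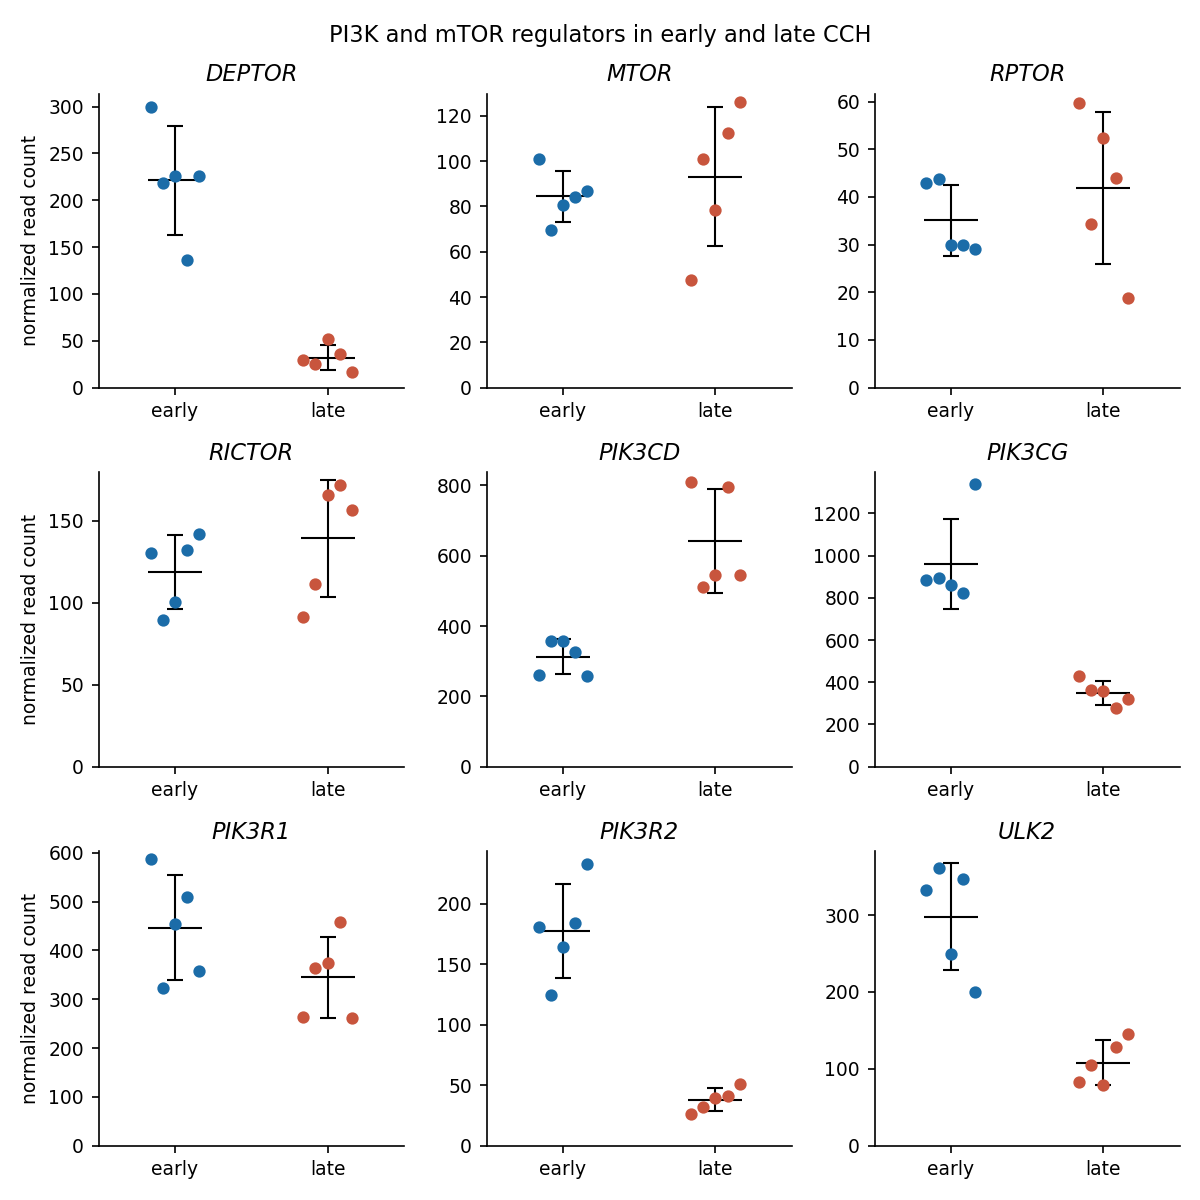
Normalized read count (y axis, from 0) of the 9 genes in the 5 early (blue) and 5 late (red) libraries, 1 point per library in the order of library number. Bars show the mean ± SD. The stages do not overlap for PIK3CG, ULK2 and PIK3CD, nor for DEPTOR and PIK3R2, which were picked for their fall. They overlap for the other 4 genes.

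DEPTOR, the inhibitor that gives the group its name, had normalized read counts of 299.9, 219, 226, 136 and 225 in early libraries 1 to 5. In late libraries 1 to 5 it had 29.8, 24.7, 52.3, 35.8 and 16.8. The highest late library thus held less than the lowest early library. The mean went from 221 ± 58.0 to 31.9 ± 13.4 (SD, n = 5 each), which is 7.00-fold lower on the fitted scale. The log2FC was -2.81 ± 0.30 (SE), where the SE takes no account of the choice of DEPTOR for its fall. Among all genes tested, 46 had a lower log2FC, a rank that shares the choice of DEPTOR for its fall. The late values rested on 161 reads in all 5 libraries together, against 1183 in the early ones, and varied more in proportion, with a coefficient of variation of 41.9% against 26.2%.

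MTOR, the kinase itself, had 101, 69.8, 80.5, 84.3 and 87.0 in the early libraries. In the late libraries it had 47.7, 101, 78.4, 112 and 126. Late CCH thus included the lowest as well as the highest values of this gene. Its mean was 84.5 ± 11.3 in early and 93.1 ± 30.8 in late CCH (SD, n = 5 each). The log2FC was 0.07 ± 0.26 (SE, BY-adjusted p = 1, limma), with a 95% interval from -0.49 to 0.63. A change of MTOR inside these bounds could not be resolved with 5 libraries a stage.

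The ratio of DEPTOR to MTOR within a library does not depend on the scaling between libraries. For every 100 normalized reads of MTOR, the early libraries held 297, 313, 281, 162 and 259 of DEPTOR. The late libraries held 62.5, 24.5, 66.7, 31.8 and 13.3. DEPTOR therefore exceeded MTOR in read number in all 5 early libraries and stayed under it in all 5 late ones, a description that shares the choice of DEPTOR for its fall.

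RPTOR, the scaffold of the complex that drives protein synthesis, had 190 reads over the early and 211 over the late libraries, the lowest number of the 9 genes in early CCH. Its values were 42.8, 43.7, 29.9, 29.9 and 29.0 in early and 59.7, 34.3, 52.3, 44.0 and 18.9 in late CCH. The late libraries spread to both sides of the early ones. The log2FC was 0.17 ± 0.33 (SE, BY-adjusted p = 1, limma; interval -0.54 to 0.88).

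RICTOR, the scaffold of the AKT-directed complex, had 130.4, 89.3, 100.4, 132 and 142 in early and 91.5, 111, 166, 172 and 156 in late CCH. Late libraries 3, 4 and 5 exceeded every early library, and the other two fell within the early range. The log2FC was 0.21 ± 0.22 (SE, BY-adjusted p = 1, limma; interval -0.27 to 0.69). Its annotated neighbor FYB1, an adaptor of T-cell signaling, was called higher in late CCH (636 in early and 1748 in late on average, log2FC 1.49 ± 0.19, BY-adjusted p = 0.0119, limma). FYB1 lay more than 2000 bases away in the assembly UU_Cfam_GSD_1.0, where 2000 bases is the length by which the counting extended genes downstream. Reads were counted on another assembly, CanFam3.1, in which distances were not measured. Whether reads of a neighbor were counted for a member was not tested.

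RPTOR made up 23.2% ± 6.27 of the summed reads of both scaffolds in early and 23.6% ± 10.3 in late CCH (SD, n = 5 each). The share ran from 17.0 to 32.9% in the early and from 10.8 to 39.5% in the late libraries. The difference of 0.44 percentage points was far within the spread of the libraries (exact two-sided permutation test, p = 0.944, adjusted p = 0.944 over 2 shares tested), and its sign changed when early library 4 or 5 or late library 1 was left out, or on the log2 ratio scale.

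PIK3CG had the smallest adjusted p of the members that were not picked for their fall. It encodes the catalytic isoform that acts behind chemoattractant receptors. The early libraries had 884, 892, 861, 821 and 1341, and the late libraries 431, 365, 357, 277 and 321. Early library 5 stood apart above the other 4 early libraries, which were close to each other. The mean went from 959.9 ± 215 to 350.3 ± 56.9 (SD, n = 5 each). This 2.72-fold decrease corresponds to a log2FC of -1.44, with a SE of 0.17 and a BY-adjusted p of 0.00812 in limma. No omission of a single library removed the call, and without early library 5 the log2FC was -1.32.

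PIK3CD, the isoform known from antigen receptor signaling, went the other way. It had 261, 358, 358, 325 and 259 in the early and 809, 511, 544, 795 and 546 in the late libraries. All late libraries were above the early ones, and late libraries 1 and 4 were higher than the other 3. The mean rose from 312 ± 49.8 to 641 ± 148 (SD, n = 5 each). This 2.03-fold increase corresponds to a log2FC of 1.02, with a SE of 0.18 and a BY-adjusted p of 0.0436 in limma. Both thresholds were only just passed. The gene was called in 1 of the 10 fits that left out a library, that without early library 2, with adjusted p-values up to 0.146 (without late library 4) and a log2FC between 0.93 and 1.09.

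**Figure D2:**
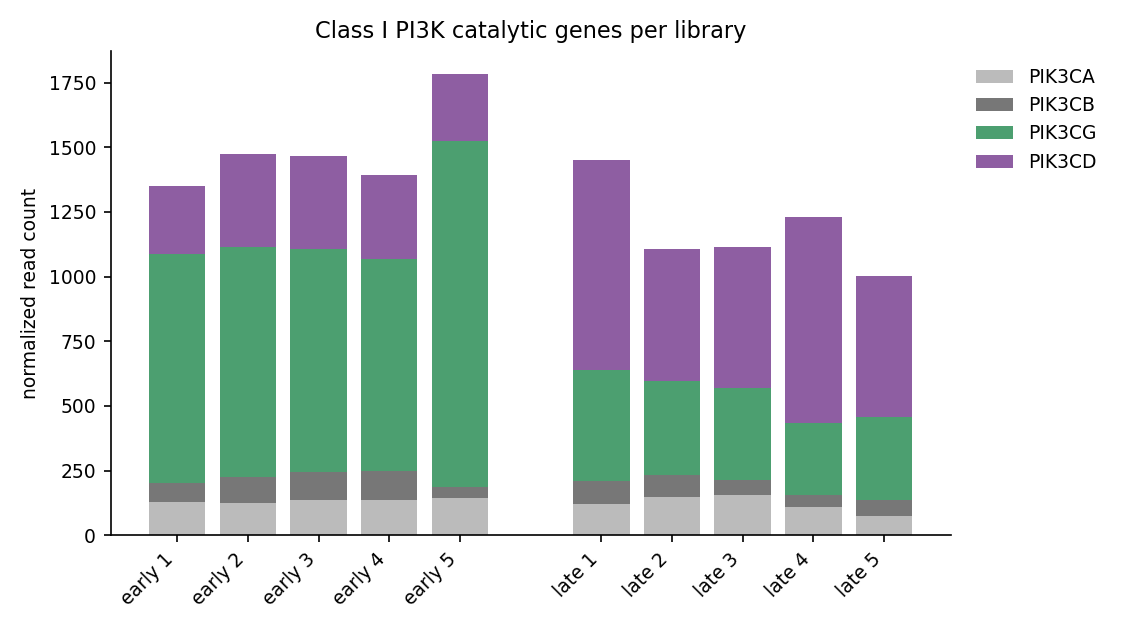
Stacked normalized read counts (y axis, from 0) of the class I catalytic genes PIK3CA and PIK3CB (gray), PIK3CG (green) and PIK3CD (purple) in each of the 10 libraries (x axis). PIK3CG forms the larger part in the 5 early libraries and PIK3CD in the 5 late libraries, with PIK3CD at 16.2 to 29.4% and 58.3 to 74.1% of the pair.

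The opposite courses changed which of the pair was more abundant in reads. PIK3CD made up 22.8, 28.6, 29.4, 28.4 and 16.2% of the reads of PIK3CD plus PIK3CG in the early libraries. In the late libraries it made up 65.3, 58.3, 60.4, 74.1 and 63.0%. The mean share was 25.1% ± 5.63 in early and 64.2% ± 6.14 in late CCH (SD, n = 5 each). This share was formed after the values of both genes had been seen and is therefore given without a test.

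The joint part of PIK3CD and PIK3CG in the class I catalytic reads overlapped between the stages. Their share among the 4 catalytic genes was 84.9% ± 2.87 in early and 83.8% ± 3.60 in late CCH (SD, n = 5 each). The difference of -1.12 percentage points was within the spread of the libraries (exact two-sided permutation test, p = 0.611, adjusted p = 0.944). Without early library 5 or late library 2 its sign changed. The more broadly expressed isoforms PIK3CA and PIK3CB had log2FC values of -0.19 ± 0.21 and -0.30 ± 0.30 (SE, BY-adjusted p = 1 for both, limma).

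Within a stage, PIK3CD went with the T-cell marker sum only in the libraries at 1 end of the range. The summed T-cell markers were 55.2, 598, 1922, 1397 and 204 in early libraries 1 to 5, and early libraries 1 and 5, with the lowest sums, had the lowest PIK3CD. The sums were 4666, 3638, 3294, 5150 and 4301 in late libraries 1 to 5, and late libraries 1 and 4, with the highest sums, had the highest PIK3CD. The remaining libraries did not follow the order of the sums. PIK3CD was 358, 358 and 325 in early libraries 2, 3 and 4. It was 511, 544 and 546 in late libraries 2, 3 and 5. PIK3CG did not rise with the T-cell sum in early CCH. Its lowest values, 861 and 821, were in early libraries 3 and 4, which had the highest sums. It was 884, 892 and 1341 in early libraries 1, 2 and 5. DEPTOR did not rise with this sum in early CCH either. It was 299.9 in the early library with the lowest, 136 in that with the second highest and 226 in that with the highest T-cell sum. In late CCH, PIK3CG was 357 in the library with the lowest sum and 277 in that with the highest. DEPTOR was 52.3 and 35.8 in these late libraries. The part of the lymphocyte infiltrate in these differences was not tested.

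**Figure D3:**
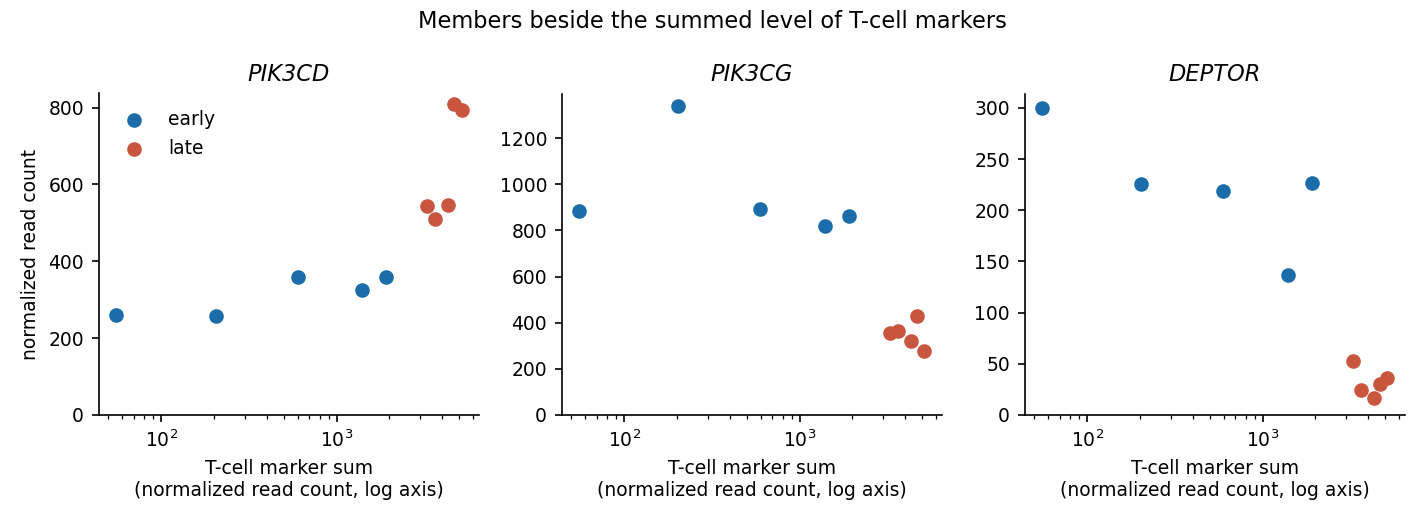
Normalized read count of PIK3CD, PIK3CG and DEPTOR (y axes, from 0) against the summed normalized read count of 8 T-cell markers (x axis, log scale) in the 5 early (blue) and 5 late (red) libraries. The late libraries lie to the right of all early ones, with T-cell sums from 3294 to 5150 against 55.2 to 1922.

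Regulatory subunits of the type encoded by PIK3R1 stabilize their catalytic partner and hold it inactive until a receptor is engaged. PIK3R1, which encodes the most widely used of them, had 586, 323, 455, 510.4 and 359 in early and 264, 363, 375, 459 and 262 in late CCH. Late libraries 1 and 5 lay below every early library, and the other 3 fell within the early range. The log2FC was -0.37 ± 0.21 (SE, BY-adjusted p = 1, limma; interval -0.82 to 0.08). CD180, a receptor of B cells and myeloid cells, is the neighbor of PIK3R1 at more than 2000 bases in the assembly UU_Cfam_GSD_1.0. It was called lower (783 and 301 on average, log2FC -1.37 ± 0.16, BY-adjusted p = 0.00812, limma).

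PIK3R2, which encodes a second regulatory subunit of the same type, had 181, 125, 165, 184 and 233 in the early libraries. The late libraries had 25.9, 32.3, 39.7, 40.9 and 51.4. The stages were separated by a wide margin. The mean went from 177 ± 39.0 to 38.0 ± 9.63 (SD, n = 5 each), 4.60-fold lower on the fitted scale. The log2FC was -2.20 ± 0.23 (SE), where the SE takes no account of the choice of PIK3R2 for its fall. Among all genes tested, 102 had a lower log2FC, a rank that shares the choice of PIK3R2 for its fall. The late libraries held 190 reads of PIK3R2 in all, the early ones 957.

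PIK3R2 accounted for 22.9, 26.5, 24.7, 25.2 and 37.7% of the reads of PIK3R1, PIK3R2 and PIK3R3 in the early libraries, and for 8.23, 7.38, 8.61, 7.05 and 14.2% in the late libraries. In both stages the fifth library had the highest share. The log2FC of PIK3R3 itself was 0.58 ± 0.34 (SE, BY-adjusted p = 1, limma). IFI30, a lysosomal thiol reductase of antigen-presenting cells and an annotated neighbor of PIK3R2, was called lower as well, from 3462 to 1205 on average (log2FC -1.59 ± 0.28, BY-adjusted p = 0.0453, limma). IFI30 lay farther from PIK3R2 than the 2000 bases by which the counting extended genes downstream. This was measured in the assembly UU_Cfam_GSD_1.0 and not in CanFam3.1, on which reads were counted. MAST3, the neighbor on the other side, lay within that distance and had a log2FC of -0.36 ± 0.24 (BY-adjusted p = 1, limma). Apart from FYB1, CD180 and IFI30, no tested neighbor of a member was called. LOC111098536 beside DEPTOR and LOC479600 beside PIK3CD, each within 2000 bases, had log2FC values of -0.05 ± 0.33 and -0.53 ± 0.20 (SE).

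ULK2 encodes a kinase that starts autophagy and is restrained by the RPTOR-containing mTOR complex. It had 333, 362, 249.7, 347 and 199.7 in early and 82.5, 105, 78.4, 129 and 146 in late CCH. The stages did not overlap. The mean fell from 298 ± 70.2 to 108 ± 29.2 (SD, n = 5 each). This 2.75-fold decrease corresponds to a log2FC of -1.46, with a SE of 0.23 and a BY-adjusted p of 0.0266 in limma. The call held in 5 of the 10 fits that left out a library and was lost without early library 1 or 4 or late library 1, 2 or 4, where the adjusted p lay between 0.0531 and 0.0861. Neither of its relatives was called. ULK1 had a log2FC of 0.01 ± 0.27 (BY-adjusted p = 1, limma), and ULK3 had 48.2 ± 19.7 in early and 130 ± 39.2 in late CCH, with all late libraries above the early ones (log2FC 1.47 ± 0.33, BY-adjusted p = 0.12, limma).

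**Figure D4:**
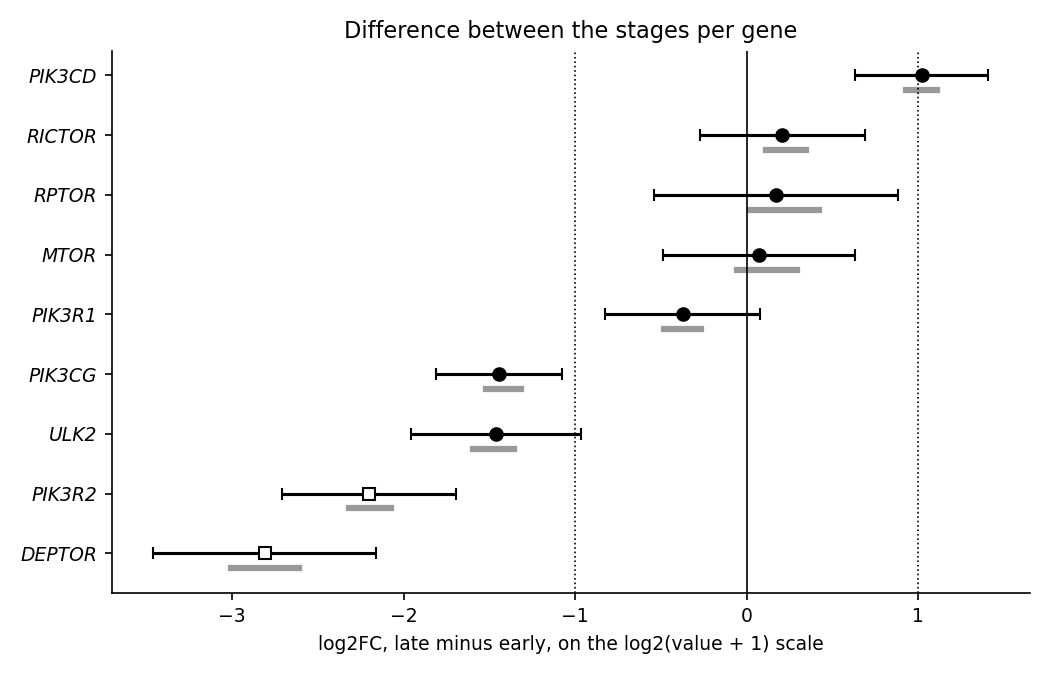
The log2FC between late and early CCH on the log2(value + 1) scale (x axis) of the 9 genes with its 95% interval. Open squares mark DEPTOR and PIK3R2, picked for their fall, whose intervals take no account of that choice and are not a test. Gray bars span the values under all alternatives of processing, and dotted lines mark -1 and 1. The values run from -2.81 for DEPTOR to 1.02 for PIK3CD.

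Further genes of the pathway were taken from a list of 106 genes ordered by role, of which 98 passed the filter. IRS1 alone was called, as lower in late CCH, and no gene was called higher. Of all genes tested, 1.11% were called lower and 1.06% higher. At these shares, a role group of at most 25 genes without a call is not a result about that group. Without adjustment 33 of the 98 genes had a p-value of at most 0.05 in limma, against 3833 of all 12397 genes tested. DESeq2 called 3 genes of the 98 higher (RRAGD, FOXO1 and ULK3) and 3 lower (IRS1, TFEB and PIK3IP1). Over all 12397 genes tested it called 480 higher and 330 lower. The median log2FC of the list was -0.06. All late libraries lay below all early ones for 13 genes (13.3%, against 6.05% of all genes tested) and above for 2 genes (2.04%, against 5.91%).

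IRS1, an adaptor that couples the insulin and IGF receptors to PI3K, had 161, 120.02, 76.0, 85.9 and 74.1 in early and 14.9, 22.8, 30.02, 38.9 and 18.9 in late CCH. The stages did not overlap. It fell 4.02-fold, at a log2FC of -2.01 with a SE of 0.32 and a BY-adjusted p of 0.0276 in limma, and was called in 4 of the 10 fits that left out a library. It was not called without early library 1, 2 or 5 or late library 1, 2 or 5, with adjusted p-values up to 0.0872. The adaptor IRS2 lay lower without overlap (1443 ± 367 in early and 821 ± 270.3 in late CCH, SD, n = 5 each), but was not called (log2FC -0.85 ± 0.23, BY-adjusted p = 0.289, limma). IGF1R had the highest log2FC among the adaptors, receptors and inhibitors, with 0.51 ± 0.25 (BY-adjusted p = 1, limma). PIK3IP1, a membrane protein that inhibits PI3K, also lay lower without overlap and uncalled (log2FC -1.32 ± 0.28, BY-adjusted p = 0.0977, limma).

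Among the phosphatases that remove the lipid signal, none of 5 was called. INPP4B had the highest log2FC with 1.77 ± 0.59 (BY-adjusted p = 0.613, limma) and INPP4A the lowest with -1.42 ± 0.39 (BY-adjusted p = 0.295, limma). Of the 6 genes for PDK1, AKT and the AKT phosphatases, none was called either. AKT1 had 1292 ± 176 in early and 740.3 ± 160 in late CCH (SD, n = 5 each) without overlap, and its log2FC was -0.82 ± 0.16 (BY-adjusted p = 0.0746, limma). AKT2 had the highest log2FC of this group with 0.30 ± 0.19 and the phosphatase gene PHLPP1 the lowest with -1.80 ± 0.74 (BY-adjusted p = 1 for both, limma). Without late library 1 the log2FC of PHLPP1 was -1.01.

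In the TSC complex and around its target, TSC1 had the highest log2FC with 0.66 ± 0.33, and DDIT4, a stress-induced inhibitor of mTOR signaling, the lowest with -0.73 ± 0.42 (BY-adjusted p = 1 for both, limma). Without late library 4 DDIT4 had -0.36, above the -0.49 of RHEB in that fit. RHEB, the GTPase that activates mTOR, lay lower in late CCH without overlap (log2FC -0.57 ± 0.15, BY-adjusted p = 0.242, limma). Of the partner proteins of the mTOR complexes, 7 were tested and none was called. They ranged from TTI2 at -0.13 ± 0.26 to PRR5 at 1.24 ± 0.61 (log2FC ± SE, BY-adjusted p = 1 for both, limma). Without early library 4 the log2FC of PRR5 was 0.67.

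The amino acid sensing arm, which recruits mTOR to the lysosome, had 25 genes tested and none called. RRAGD, which encodes a Rag GTPase, had 48.2 ± 16.8 in early and 198 ± 93.7 in late CCH (SD, n = 5 each), the highest log2FC of the list with 1.90 ± 0.39 (BY-adjusted p = 0.0793, limma). It was called without late library 3, with an adjusted p of 0.0158. SESN1, a stress-induced inhibitor of this arm, had the lowest log2FC of the group with -1.19 ± 0.29 (BY-adjusted p = 0.186, limma).

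Of 15 targets of AKT and mTOR, none was called. FOXO1, a transcription factor that AKT excludes from the nucleus, had the highest log2FC with 1.48 ± 0.38 (BY-adjusted p = 0.206, limma), and the kinase gene SGK3 the lowest with -1.35 ± 0.49 (BY-adjusted p = 0.817, limma), or -0.87 without late library 5. TFEB, a transcription factor of lysosomal genes, and EIF4E, the cap-binding factor of translation, lay lower without overlap, with log2FC values of -1.03 ± 0.21 and -0.62 ± 0.14 (BY-adjusted p = 0.0797 and 0.136, limma). AKT1, IRS2, PIK3IP1, RHEB, TFEB and EIF4E were named after their values had been seen.

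Among the 13 tested genes of autophagy initiation and of AMPK, ULK3 had the highest log2FC and PRKAA1, a catalytic subunit of AMPK, the lowest with -0.74 ± 0.20 (BY-adjusted p = 0.274, limma). The genes for the ligase and the kinase that mark DEPTOR protein for degradation were not called. CSNK1A1 had a log2FC of 0.49 ± 0.13 and FBXW11 one of -0.60 ± 0.16 (BY-adjusted p = 0.262 and 0.224, limma), each without overlap between the stages. PIK3C2B and PIK3R4 bounded the class II and III PI3K genes with 0.29 ± 0.38 and -0.57 ± 0.25, and PIK3R6 was the lowest of the further class I regulatory genes with 0.13 ± 0.35 (BY-adjusted p = 1 for all, limma).

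**Figure D5:**
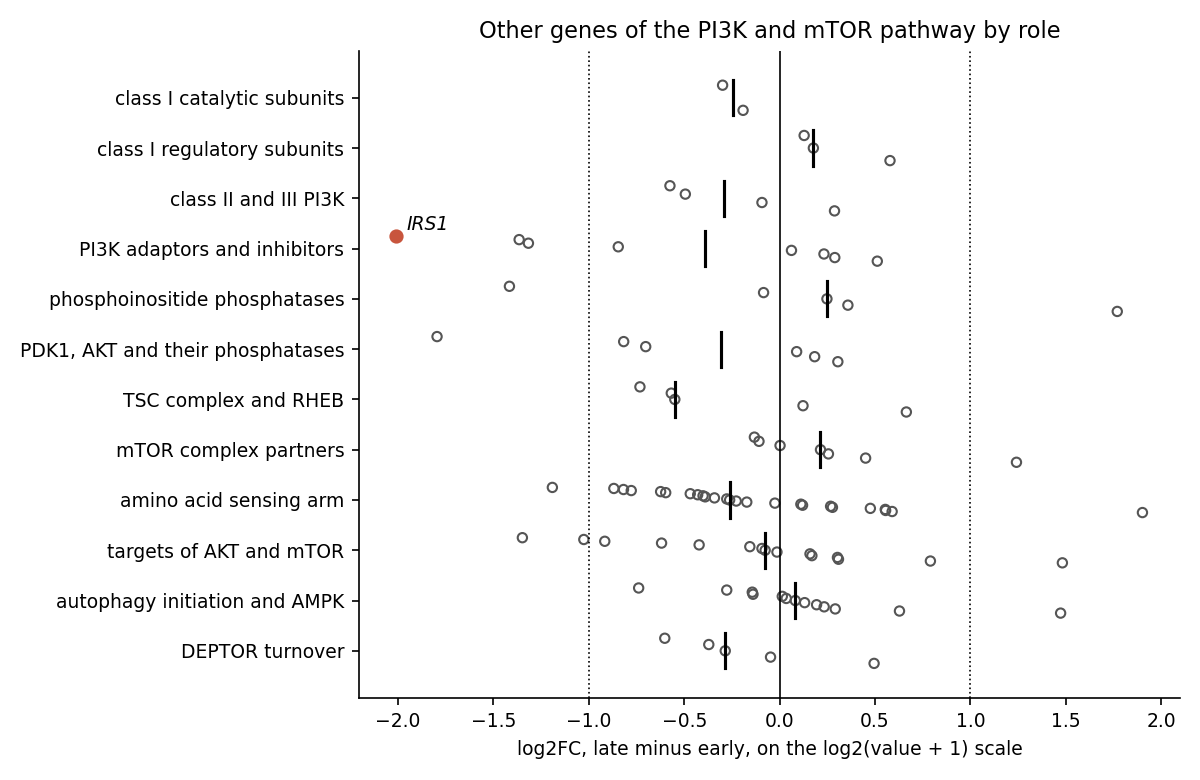
The log2FC between late and early CCH on the log2(value + 1) scale (x axis) of the 98 further pathway genes that passed the filter, by role (y axis). Open circles were not called, the filled circle is IRS1, black bars are medians per role and dotted lines mark -1 and 1. The values run from -2.01 for IRS1 to 1.90 for RRAGD.

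The genes whose pattern was most like those of the picked members were sought by the Pearson correlation of log2(value + 1) over the 10 libraries. As measured, RAB32, PIGZ and CRY1 were most like DEPTOR (r = 0.985, 0.979 and 0.976), and CAB39, ALDH3A2 and ETV4 most like PIK3R2 (r = 0.986, 0.979 and 0.976). All 6 share the difference between the stages, with log2FC values from -2.47 for PIGZ to -1.05 for CAB39. When the mean of each stage was subtracted, other genes came first, namely POLK, PRAG1 and HSPBAP1 for DEPTOR (r = 0.908, 0.904 and 0.904) and ALG11, RNPC3 and RECQL5 for PIK3R2 (r = 0.959, 0.938 and 0.930). These are descriptions of 10 libraries that share their scaling, drawn from all genes tested. After this subtraction DEPTOR and PIK3R2 themselves had a coefficient of -0.16, against 0.90 as measured.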

How the data were processed

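QuantSeq 3′ libraries of 5 early and 5 late CCH were analysed. According to the authors' methods, reads were trimmed with Cutadapt, aligned with STAR to CanFam3.1 (RefSeq annotation) and counted with featureCounts, in a second round on genes extended downstream, with multi-mapped reads shared evenly. Versions are not given in the sources used here. The deposited values are a normalized signal, which the authors made by dividing the counts of a library by a size factor. All 166096 values above 0 gave whole reads (tolerance 0.001 reads), which edgeR and DESeq2 used as alternatives.

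Of 21 value columns, 11 could not be matched to any sample and were left out. Column names show the stage but not the sample, so libraries are numbered within a stage only to name them. Every tumor came from a different dog.

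The main test was limma 3.58.1 with a mean-variance trend (R 4.3.3) on log2(value + 1), without covariates, for genes that reached a value of 10 in 5 or more libraries. P-values were BY-adjusted over 12397 genes. Shares were compared with exact two-sided permutation tests over 252 assignments (smallest p 0.00794), Benjamini-Hochberg (BH) adjusted over 2 shares. Alternatives used edgeR 4.0.16 (quasi-likelihood) and DESeq2 1.42.0 (Wald), other pseudocounts, filters, scalings and adjustments, and the omission of each library.

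Members, pathway lists and marker lists were chosen with earlier results of these data known. Beyond the members, the pathway genes called, the highest and lowest log2FC of each role, the 3 genes most like DEPTOR and PIK3R2 (symbols starting with LOC left out), the neighbors of members and the markers at 0 or most changed could be named. Neighbors were taken from the RefSeq table of assembly UU_Cfam_GSD_1.0, which held all 9 members. Distances to neighbors were not measured in CanFam3.1. A gene at 0 in a library may have had up to 3 reads (2.36 to 3.22 after scaling), which covers counting error only.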

Additional observations from a re-analysis of the deposited data

Results flagged for a closer look

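In 28 groups of 5 libraries (the 9 members, IRS1 and 4 shares in each stage), a library stood far from the others in 3, where chance gives about 1.4. The PIK3CG value of early library 5 was 1341, against 892 in the next early library. The share of PIK3R2 among the regulatory genes was 37.7% in early library 5, against 26.5% in the next early library. It was 14.2% in late library 5, against 8.61% in the next late library. The distance to the nearest library was 0.862, 0.757 and 0.781 of the range of the group, above the critical value of 0.71.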

How the results depend on the processing

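No paired analysis was possible because column names carry no replicate number and every tumor came from a different dog. All members kept their direction under all alternatives run, except MTOR, which had a log2FC of -0.01 without late library 4 and -0.054 without late library 5. Over the 10 fits without 1 library, the log2FC of MTOR ran from -0.054 to 0.29, that of RPTOR from 0.022 to 0.42, that of RICTOR from 0.11 to 0.35, that of DEPTOR from -3.01 to -2.61, that of PIK3R2 from -2.32 to -2.07, that of PIK3CD from 0.93 to 1.09 and that of ULK2 from -1.60 to -1.36. PIK3CD was not called without a filter (log2FC 1.02, adjusted p = 0.0543) or by edgeR (1.06, adjusted p = 0.0543), and PIK3CG and ULK2 were called under all 9 alternatives with all libraries. RPTOR had no value with a mean of at least 50. The log2FC changed sign for PIK3R6 without late library 4 (-0.012, highest 0.39), for PIK3C2B without late library 3 (-0.038, highest 0.53) and for TTI2 without late library 5 (0.026, lowest -0.23).

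The 269 calls (131 higher, 138 lower) became 1121 with BH adjustment (685 and 436), 177 with edgeR (81 higher) and 810 with DESeq2 (480 and 330), and 49 to 260 without 1 library (18 to 144 higher, 29 to 153 lower), with the fewest without early library 5. BH is the less strict adjustment by construction, and the cause of the other changes was not tested. Scaling by the column total made 64.0% of the calls higher, against 48.7%. Of the pathway genes, BH called 3 higher and 6 lower, DESeq2 3 and 3, and the fits without 1 library 0 to 1 higher and 0 to 2 lower. The share of PIK3CD and PIK3CG (-1.12 percentage points) ran from -1.96 to 0.076 without 1 library, with the other sign without early library 5 (0.061) or late library 2. The RPTOR share (0.44) ran from -3.52 without late library 1 to 3.66, was also negative without early library 4 (-0.74) or 5 (-1.11), and was -0.035 as a log2 ratio. With 5 libraries a stage and 16 to 54 reads of DEPTOR in a late library, small differences within a stage were not detectable at this depth.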
